A study of Mus musculus with 44 samples.

Results

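Valine tRNA fragments are pieces of the transfer RNAs that carry the amino acid valine to the ribosome. Of the 17051 tRNA fragments (tRFs) counted in mouse hypothalamus, 31 were taken as the valine fragments. They were chosen by annotation and abundance: each lists only valine tRNAs as its source, whatever its fragment type, and each reached a summed count of at least 220 over 44 libraries. Abundance was thus used in the choice, and the summed counts below describe the fragments without testing anything. Together the 31 fragments hold 39993 of 4569025 tRF counts, or 0.875%. Another 766 fragments that list only valine tRNAs fell under the minimum and hold 8810 counts, and 38 fragments that name valine together with another amino acid hold 2278.

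Transfer RNAs are cut inside cells by nucleases such as angiogenin, which cleaves in the anticodon loop and leaves 5′-halves and 3′-halves. Shorter pieces arise from cuts in the D loop and the T loop, and 3′ fragments of mature tRNAs end in CCA, which is added after transcription and is not encoded in vertebrate tRNA genes. Valine is read by tRNAs with the anticodons AAC, CAC and TAC, whose sequences differ at few places. The hypothalamus controls feeding, body weight and energy use.

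The libraries came from C57Bl/6J mice. AM132 (16 libraries) were diet-induced obese mice given a locked nucleic acid oligonucleotide of 16 nt against miR-132. AM608 (16 libraries) were obese mice given a control oligonucleotide of 15 nt against miR-608, a primate miRNA for which mice have no predicted complementary sequence. Both were injected intravenously at 3.3 mg/kg on 3 consecutive days, after 11 weeks of high fat diet, and killed 7 days after treatment. RCD (12 libraries) were age-matched lean mice on regular chow. Their labels mention no injection, and where obese mice are set against RCD, the effects of diet and of injection cannot be told apart. No age is given in the labels. The labels name 4 batches without saying what a batch is. AM132 and AM608 had 4 libraries each in batch 1, 8 each in batch 2 and 4 each in batch 3. Of the RCD libraries, 4 were in batch 2 and the other 8 made up batch 4, in which no obese mouse was placed.

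Depth was 38619 to 221358 tRF counts per library, beside 3020192 to 5997234 miRNA counts. The 5 neuronal miRNAs looked at (miR-9-5p, miR-124-3p, miR-128-3p, miR-138-5p and miR-7a-5p) summed to between 182240 and 345130 CPM (counts scaled to a common library total) among miRNAs, so neuronal markers were abundant in every library. The 7 pituitary miRNAs summed to a median of 362 CPM, with 20838 in AM608 5 and 16399 in AM132 6 as the highest libraries, both of batch 2, and the 5 choroid plexus and ciliated-cell miRNAs to a median of 3114 CPM. AM132 6 was also the highest library for the muscle list, at 3061 CPM against a median of 313 CPM. The comparisons of AM132, AM608 and RCD called 0 valine fragments also without AM132 6, and without AM132 5, AM132 6 and AM608 5 together. In bulk tissue, fewer cells of a type and less RNA per cell cannot be told apart.

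The sequences of the most abundant 3′ fragments show a pair of lengths, each with and without the last base. They are given as deposited, in DNA letters from 5′ to 3′, with a complete CCA end in capitals.
tRF-17-08Q2B52: accgggcggaaacaCCA
tRF-16-08Q2B5D: accgggcggaaacacc
tRF-18-BS68BFD2: aaccgggcggaaacaCCA
tRF-17-BS68BFJ: aaccgggcggaaacacc

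The 5′ fragments carry the differences between the valine tRNAs, and the fragments below are those on which the results turn. Capitals mark positions at which fragments that start at the first base of the tRNA do not all have the same base.
tRF-48-R9JP9PMNH5SYNX2VF00D: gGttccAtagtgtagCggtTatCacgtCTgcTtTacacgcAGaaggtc
tRF-36-R9JP9PMNH5SYNXD: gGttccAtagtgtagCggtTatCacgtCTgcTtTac
tRF-34-R9JP9PMNH5SYHQ: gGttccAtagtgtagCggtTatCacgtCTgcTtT
tRF-16-MNH5SYD: CggtTatCacgtCTgc
tRF-34-79MP9P9NH57S1O: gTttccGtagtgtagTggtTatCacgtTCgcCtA
tRF-29-79MP9P9NH52Q: gTttccGtagtgtagTggtTatCacgtTT
tRF-23-79MP9P9NDE: gTttccGtagtgtagTggtTatT
tRF-23-79MP9P9MDD: gTttccGtagtgtagTggtCatC
tRF-22-ZRS3S3R65: TttccGtagtgtagTggtCatC
tRF-21-ZRS3S3R6E: TttccGtagtgtagTggtCat
tRF-23-ZRS3S3R602: TttccGtagtgtagTggtCatCa

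The first 4 of these list ValTAC tRNAs, tRF-23-79MP9P9NDE lists ValCAC, and the other 6 list ValAAC. Counted from the first base of the tRNA, the 13 fragments that start at position 1 vary at positions 2, 7, 16, 20, 23, 28, 29, 32, 34, 41 and 42. Position 34 is the first base of the anticodon. Position 20, in the D loop, separates the last 4 fragments above, which have a cytosine there, from the others, which have a thymine. This grouping by the base at position 20 was made after the values had been seen. Of the 31 fragments, 7 have cytosine at position 20, 15 have thymine and 9 do not cover it.

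**Figure D1:**
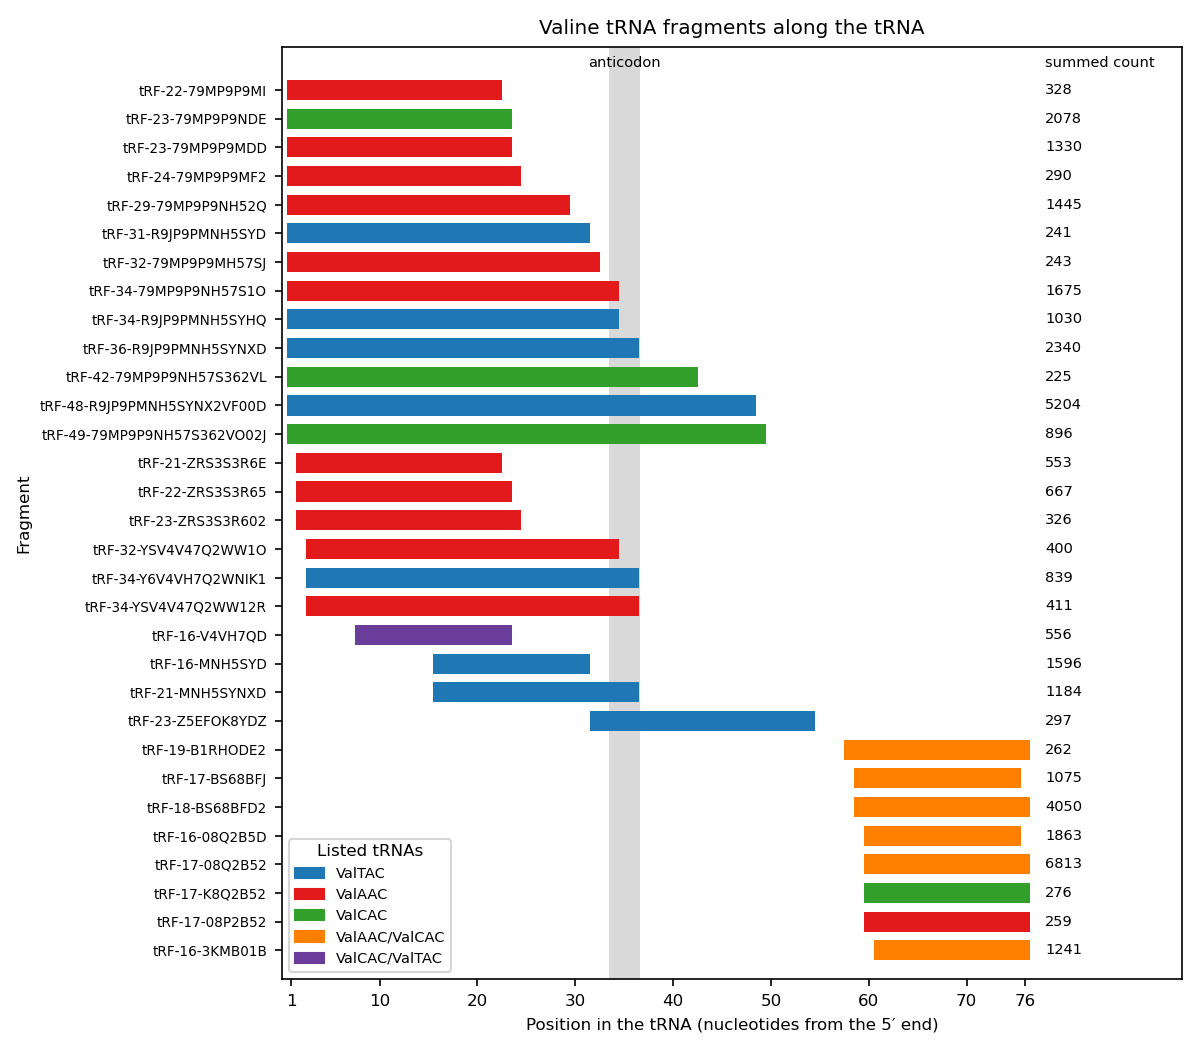
Each bar spans one of the 31 valine fragments along the tRNA, in nucleotides from the 5′ end, coloured by the listed tRNAs, with its summed count over 44 libraries at the right and the anticodon shaded. The bars fall into fragments that start at positions 1 to 3, a few internal pieces, and short 3′ ends that stop at position 75 or 76.

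By counts, the valine fragments came mainly from the 2 ends of the tRNA, with 3′-tRFs of 16 to 19 nt and fragments from position 1 of 22 to 49 nt. The 8 fragments classed as 3′-tRFs held 15839 counts (39.6% of the valine counts), the 10 classed as 5′-tRFs 14377 (35.95%), the 10 internal fragments (i-tRFs) 6829 (17.08%) and the 3 classed as 5′-halves 2948 (7.371%). By length, 19 fragments of 16 to 24 nt held 25044 counts (62.6%), 8 of 31 to 36 nt held 7179, and 2 of 46 to 50 nt held 6100 (15.3%). The 3 most abundant, tRF-17-08Q2B52 (6813), tRF-48-R9JP9PMNH5SYNX2VF00D (5204) and tRF-18-BS68BFD2 (4050), held 40.17% between them.

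By anticodon, the 6 fragments shared by ValAAC and ValCAC tRNAs were all 3′ ends and held 15304 counts (38.27%), sequences that the table lists for both kinds of tRNA. The 8 ValTAC fragments held 12731 (31.83%), the 12 ValAAC fragments 7927 (19.82%) and the 4 ValCAC fragments 3475 (8.689%). The remaining one, tRF-16-V4VH7QD, lists both ValCAC and ValTAC and held 556. Fragments that start at position 1 numbered 13 and held 17325 counts (43.3%); those that start at position 2 numbered 3 (1546 counts) and those at position 3 also 3 (1650 counts). RefSeq annotates 22 valine tRNA genes in GRCm38, of which 8 have the anticodon AAC, 11 CAC and 3 TAC. None of the 23 tRNA locations listed by the valine fragments overlaps one of them (0 of 23), so the deposited locations do not belong to that build and no coordinates are given. Over the whole table, 421 tRFs with 76196 counts list a chromosome that mouse lacks. The anticodon names and numbers of locations used here come from these deposited lists, whose reference is not known.

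The minimum count divided fragments of much the same abundance. Just inside it were tRF-42-79MP9P9NH57S362VL with 225 counts and tRF-31-R9JP9PMNH5SYD with 241. Just outside it were tRF-38-79MP9P9NH57S36D1 with 219, tRF-22-W0K672052 with 207, tRF-34-Y6V4V47Q2WNIK1 with 201 and tRF-27-YSV4V47Q2WQ with 198. Of the 31 fragments, 20 were counted in all 44 libraries, and the sparsest had counts in 38.

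The CCA end was incomplete in a share of the 3′ fragments. tRF-16-08Q2B5D is tRF-17-08Q2B52 without its last A, and it made up 22.01% ± 3.87 of the counts of the pair (SD, n = 44 libraries). By group this share was 23.2% ± 2.94 in AM132 (n = 16), 22.2% ± 4.43 in AM608 (n = 16) and 20.1% ± 3.69 in RCD (n = 12). For tRF-17-BS68BFJ and tRF-18-BS68BFD2 it was 21.4% ± 4.42 over the 44 libraries, with 21.5% ± 4.52 in AM132, 21.5% ± 5.52 in AM608 and 20.9% ± 2.55 in RCD. The share varied more within AM608 than between the groups, for the second pair, with 14.6% ± 2.56 in batch 1 (n = 4) and 24.1% ± 4.37 in batch 2 (n = 8). The ranges of the 3 groups overlapped for both pairs.

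The share of fragments that lacked only the first base was less uniform, and was highest in short fragments with cytosine at position 20. The cytosine form of 22 nt, tRF-22-79MP9P9MI, had 328 counts, and the same fragment without its first base, tRF-21-ZRS3S3R6E, had 553, or 62.8% of the pair. For the 24 nt form the share without the first base was 52.9%, and for the 23 nt form, tRF-23-79MP9P9MDD, it was 33.4% (667 counts in tRF-22-ZRS3S3R65). These 3 are short fragments with cytosine at position 20.

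Fragments that start at position 1 with thymine at position 20 rarely lacked the first base alone. Fragments that start at position 3 are not in these shares, and the ones among the 31 have thymine at position 20. tRF-34-Y6V4VH7Q2WNIK1 (839 counts) starts there and ends as tRF-36-R9JP9PMNH5SYNXD (2340) does. tRF-32-YSV4V47Q2WW1O (400) starts there and ends as tRF-34-79MP9P9NH57S1O (1675) does. The share was 4.20% for tRF-23-79MP9P9NDE, which has the same length as tRF-23-79MP9P9MDD, and 3.99% for tRF-29-79MP9P9NH52Q. It was 0.0960% for tRF-48-R9JP9PMNH5SYNX2VF00D and 6.74% for tRF-36-R9JP9PMNH5SYNXD, the highest of this kind. The longest cytosine form, tRF-32-79MP9P9MH57SJ, had a share of 1.62%, so among the 13 fragments that start at position 1 the 3 highest shares belonged to the short cytosine forms.

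The cytosine form was counted at a series of lengths. Of its 17 possible 5′ forms of 16 to 32 nt, 11 were in the table, from 20 to 32 nt, with 2586 counts. Of the 18 shorter 5′ forms of the ValAAC fragment with thymine at position 20, tRF-34-79MP9P9NH57S1O, the number listed was 0. For the ValTAC fragment of the same length, 17 of 18 were listed, with 1082 counts. The 18 unlisted ValAAC forms are also the first bases of the ValCAC fragment tRF-49-79MP9P9NH57S362VO02J. How sequences were selected for the table is not given, so the numbers listed do not show which forms were absent from the tissue. The cytosine form made up 37.02% ± 13.6 of the counts of the 2 fragments of 23 nt with either base (SD, n = 44), from 11.11% to 69.5% in single libraries. These 2, tRF-23-79MP9P9MDD of ValAAC and tRF-23-79MP9P9NDE of ValCAC, also differ at position 23. The share, here and below, is therefore one between 2 fragments and not between 2 bases of 1 fragment.

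Fragments that end in the anticodon varied most from library to library. Within a group and batch, the coefficient of variation had a median of 55.3% over the 7 fragments that end at positions 34 to 36, from 29.7% to 88.3%. It was 28.004% over the 8 fragments that end at position 75 or 76 and 35.5% over the 8 that end at positions 22 to 24. The 7 held 0.168% ± 0.0465 of tRF counts (SD, n = 44).

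The libraries lowest in anticodon-ended fragments were AM608 8 (0.0548% of tRF counts) and AM132 12 (0.0609%), both of batch 2. tRF-36-R9JP9PMNH5SYNXD, the 5′ part of ValTAC up to the last base of the anticodon, had 3 counts in AM608 8 and 1 in AM132 12. Fragments of any tRNA classed as 5′-halves made up 8.31% of tRF counts in AM608 8 and 5.83% in AM132 12, against 17.8% ± 5.72 over the 16 AM132 and AM608 libraries of batch 2. The other libraries with at most 5 counts of tRF-36-R9JP9PMNH5SYNXD were not alike in their share of 5′-halves. RCD 5, with 5 counts, had 13.74%. RCD 10, with 0 counts, had 22.1% and AM132 1, with 5 counts, had 26.4%, against 23.64% ± 7.43 over the 44 libraries.

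tRF-36-R9JP9PMNH5SYNXD averaged 623 ± 354 CPM in AM132 and 613 ± 255 CPM in AM608 (SD, n = 16 each), against 252 ± 249 CPM in RCD (n = 12). Here and below, CPM of a fragment refers to tRF counts alone, with scaling over the 44 libraries. Within batch 2 its means were 431 ± 249 in AM132 (n = 8), 506 ± 268 in AM608 (n = 8) and 324 ± 305 in RCD (n = 4), where the RCD libraries had 160.5, 0, 686 and 449 CPM. The groups overlapped widely in batch 2, and the 8 RCD libraries of batch 4 had a median of 122 CPM.

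As a share of all tRF counts, the valine fragments were highest in the RCD libraries of batch 4. They held 1.53% ± 0.583 there (SD, n = 8), against 0.803% ± 0.165 in RCD of batch 2 (n = 4). In the lowest library of batch 4 the share was 0.842%, the median was 1.36% and the highest was RCD 7 with 2.64% (Wilson 95% interval 2.50 to 2.78%, counting error only). The RCD libraries of batch 2 held 0.857, 0.990, 0.597 and 0.766%, so the batches overlapped in their range. RCD 4 with 2.06% (1.94 to 2.18%) and RCD 7 raised the mean of batch 4. A share also depends on the other tRFs, and all tRF counts averaged 70876 per library in batch 4 and 110370.5 in batch 2. The valine counts themselves ran from 664 (RCD 8) to 1369 (RCD 7) in batch 4. In batch 2 they ran from 522 (RCD 9) to 1158 (RCD 12).

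Between AM132 and AM608 the share hardly differed. It was 1.06% ± 0.335 in AM132 and 1.01% ± 0.275 in AM608 in batch 1 (n = 4 each), and 0.845% ± 0.122 against 0.791% ± 0.228 in batch 2 (n = 8 each). In batch 3 it was 0.726% ± 0.131 in AM132 and 0.740% ± 0.162 in AM608 (n = 4 each). In each batch the means lay within 1 SD of each other.

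**Figure D2:**
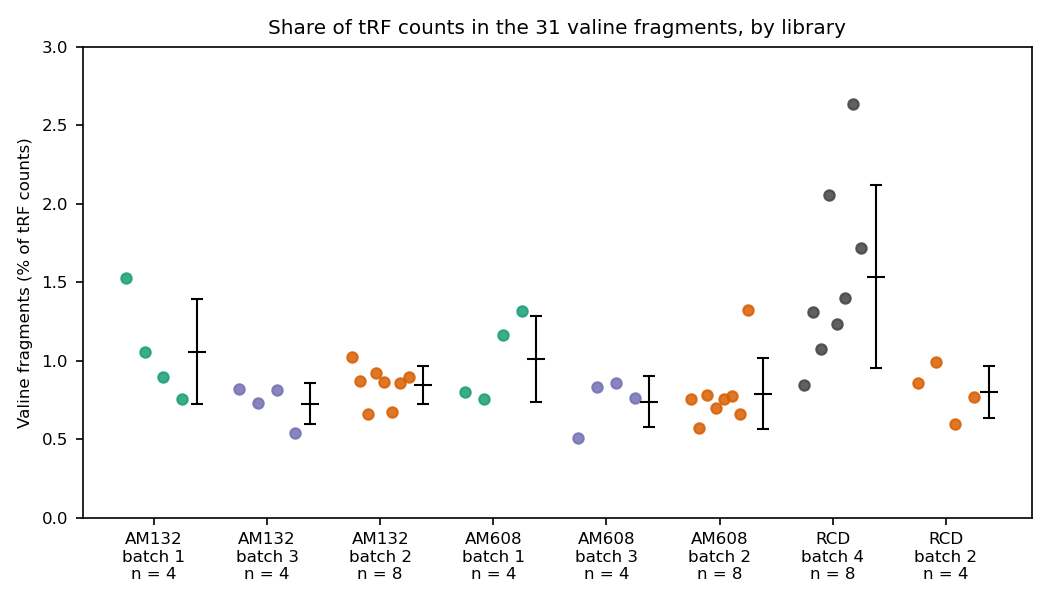
Share of each library's tRF counts held by the 31 valine fragments, in percent, by group and batch; points are libraries and bars are means. RCD of batch 4 has the highest mean, 1.53%, with RCD 7 at 2.64%, while the means of AM132 and AM608 in batches 1 to 3 lie between 0.726% and 1.06%.

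The comparison of AM132 with AM608 asked whether the oligonucleotide against miR-132 went with a change in these fragments in obese mice. Every batch with both groups entered, with batch as a term, and 494 tRFs were tested. Across all tRFs 0% were called at an adjusted p of 0.05 (edgeR quasi-likelihood test, Benjamini-Hochberg adjustment), and 0 of the 21 valine fragments tested. At an unadjusted p under 0.05 there were 33 tRFs, 1 of them a valine fragment, and DESeq2 called 0. Of the 21, 14 were higher and 7 lower in AM132, with a median log2 fold change of 0.04 against 0.01 over all tRFs tested and a range of -0.69 to 0.46.

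The abundant valine fragments had much the same level in both groups. tRF-17-08Q2B52 averaged 1468 ± 308 CPM in AM132 and 1565 ± 342 CPM in AM608 (SD, n = 16 each). tRF-48-R9JP9PMNH5SYNX2VF00D averaged 1203 ± 399 CPM in AM132 and 1157 ± 427 CPM in AM608. tRF-18-BS68BFD2 averaged 884 ± 208 CPM in AM132 and 899 ± 220 CPM in AM608. These differences are smaller than the SD of either group.

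The 3 fragments of smallest p did not pass the test. tRF-21-ZRS3S3R6E, a short ValAAC fragment with cytosine at position 20, had 63.6, 134 and 270 CPM as its lowest, median and highest level in AM132, against 14.5, 104 and 163 CPM in AM608. The groups overlapped, and the log2 fold change was 0.46 ± 0.21 (SE; p = 0.0349, edgeR adjusted p = 0.642; above the AM608 mean of its batch in 12 of 16 libraries). tRF-34-R9JP9PMNH5SYHQ, which ends at the first anticodon base of ValTAC, averaged 265 ± 98.2 CPM in AM132 and 211 ± 113 CPM in AM608, a log2 fold change of 0.40 ± 0.20 that turned to -0.22 in batch 1 alone. tRF-32-YSV4V47Q2WW1O, a ValAAC fragment that starts at position 3, averaged 81.4 ± 68.3 CPM in AM132 and 129 ± 104 CPM in AM608, a log2 fold change of -0.69 ± 0.41 that turned to 0.17 in batch 3 alone.

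Whether the difference between AM132 and AM608 depended on batch was tested as an interaction. It passed for 1.01% of the 494 tRFs and for 0 of the 21 valine fragments, 1 of which had an unadjusted p under 0.05. That fragment was tRF-49-79MP9P9NH57S362VO02J, the 5′ fragment of ValCAC of 49 nt, with p = 0.00604 and an edgeR adjusted p of 0.298.

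Obese and lean mice could be compared in batch 2 only, with 8 AM132, 8 AM608 and 4 RCD libraries. In AM608 against RCD 0% of 575 tRFs were called by edgeR, with 28 at an unadjusted p under 0.05 and 1 by DESeq2. Of 20 valine fragments tested, 0 were called by either tool and 2 had an unadjusted p under 0.05; 11 were higher and 9 lower in AM608, with a median log2 fold change of 0.12 against 0.09 over all tRFs and a range of -0.86 to 0.69. In AM132 against RCD 0% were called, with 21 at an unadjusted p under 0.05 and 0 by DESeq2. Of the valine fragments 0 of 20 were called and 0 had an unadjusted p under 0.05, with 14 higher and 6 lower in AM132, a median of 0.20 against 0.06 and a range of -0.50 to 0.57. Both comparisons use the same 4 RCD libraries, so their directions are not independent.

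tRF-34-R9JP9PMNH5SYHQ had the smallest p of AM608 against RCD. Its lowest, median and highest levels were 73.5, 137 and 231 CPM in AM608, and the RCD libraries had 248, 447, 198 and 138 CPM. All 8 AM608 libraries lay under the RCD mean, yet the groups overlapped, and the log2 fold change of -0.86 ± 0.36 had an adjusted p of 0.839 (edgeR). In AM132 of the same batch the fragment averaged 239 ± 83.0 CPM, against 258 ± 134 CPM in RCD.

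tRF-22-ZRS3S3R65, with cytosine at position 20, averaged 125 ± 42.997 CPM in AM608, 111 ± 34.5 CPM in AM132 (n = 8 each) and 73.1 ± 22.4 CPM in RCD (n = 4). The RCD libraries had 87.6, 54.5, 53.4 and 96.8 CPM, and the levels ran from 67.7 to 203 CPM in AM608 and from 73.1 to 162 CPM in AM132. The higher 2 RCD libraries lay inside both ranges. The log2 fold change was 0.69 ± 0.30 in AM608 (adjusted p = 0.839, edgeR; above the RCD mean in 7 of 8) and 0.57 ± 0.29 in AM132 (adjusted p = 0.994; 8 of 8). This was not past the test in either comparison.

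tRF-16-08Q2B5D, the 3′ end without the last A, averaged 463 ± 66.8 CPM in AM608, 460 ± 107 CPM in AM132 and 354 ± 41.2 CPM in RCD. Its log2 fold change was 0.31 ± 0.20 in AM608 and 0.35 ± 0.20 in AM132, with edgeR adjusted p of 0.992 and 0.994. tRF-16-MNH5SYD, an internal ValTAC fragment, averaged 489 ± 155 CPM in AM132 and 334 ± 39.1 CPM in RCD, a log2 fold change of 0.54 ± 0.28 (adjusted p = 0.994). Neither was told apart from the spread between libraries.

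**Figure D3:**
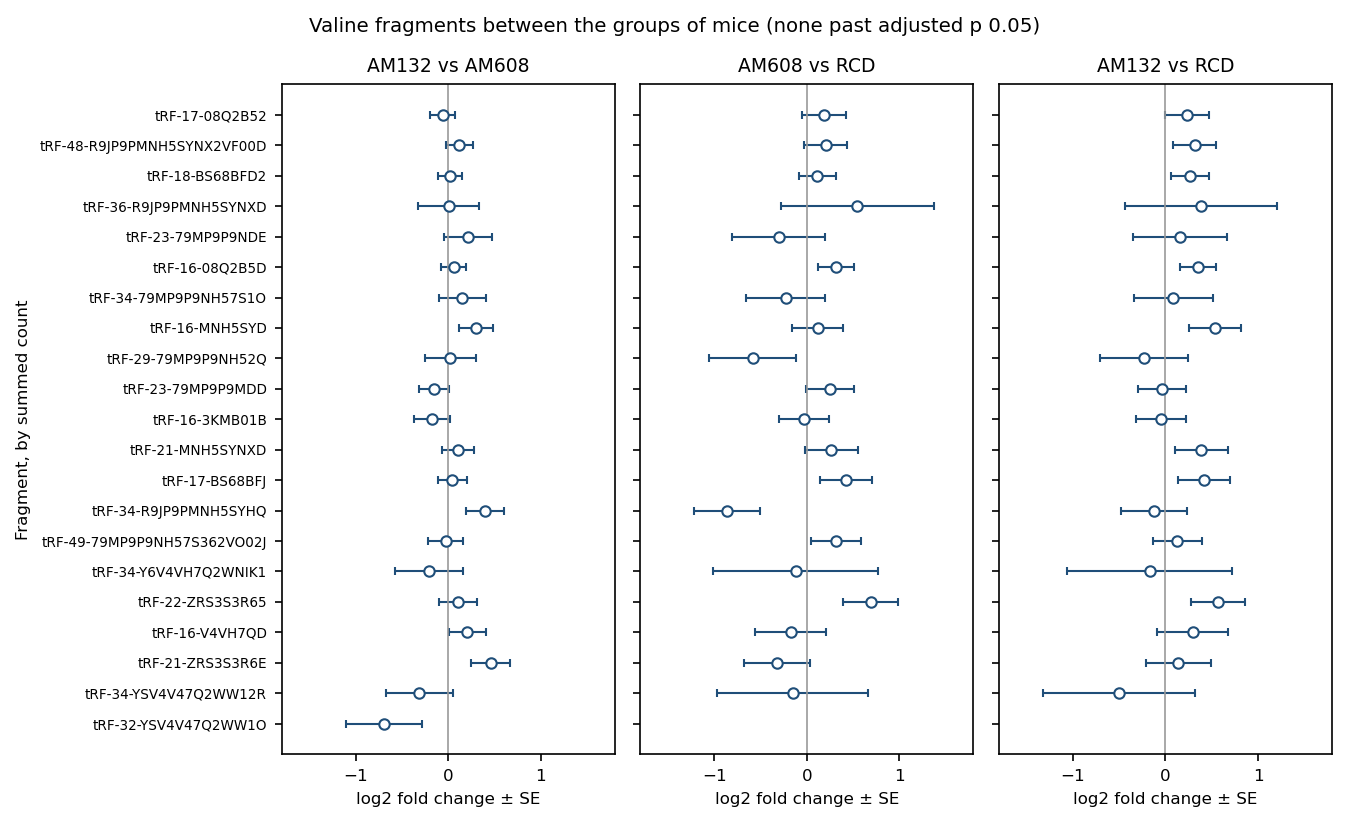
Log2 fold change ± SE of each tested valine fragment between the groups, by summed count from the top; a point right of 0 is higher in the group named first. No fragment passed an adjusted p of 0.05 in any panel, and the widest SEs belong to fragments that end in the anticodon.

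The RCD mice were spread over batches 4 and 2, which shows how far libraries of 1 group differed between batches. The short ValAAC fragments with cytosine at position 20 were higher in batch 4, and so was a pair of 3′ ends shared by ValAAC and ValCAC tRNAs. One ValAAC fragment of 29 nt was lower. Of 510 tRFs tested, 4.51% were called higher and 5.29% lower in batch 4. Of 21 valine fragments 6 were called higher and 1 lower, with 16 higher and 5 lower in sign, and a median log2 fold change of 0.56 against -0.08 over all tRFs. Batch and any other feature of these mice cannot be told apart, and the 4 RCD libraries of batch 2 are those of the comparisons above.

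tRF-23-79MP9P9MDD had the smallest p among the valine fragments. Its lowest, median and highest levels in RCD of batch 4 were 216, 377 and 549 CPM, and the RCD libraries of batch 2 had 117, 65.4, 107 and 173 CPM. Every library of batch 4 was above every one of batch 2. The log2 fold change was 1.81 ± 0.31 (edgeR adjusted p = 0.00307), and it was called under all 11 alternative settings.

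The 3 forms without the first base were also called higher in batch 4. tRF-22-ZRS3S3R65 had 79.7, 203 and 307 CPM in batch 4 as its lowest, median and highest level, against 87.6, 54.5, 53.4 and 96.8 CPM in batch 2. Here 1 library of batch 4 lay within the range of batch 2, and the log2 fold change was 1.64 ± 0.37 (edgeR adjusted p = 0.0150). tRF-21-ZRS3S3R6E had 142, 177 and 225 CPM in batch 4, against 102, 76.3, 107 and 104 CPM in batch 2. Its log2 fold change was 0.99 ± 0.22 (adjusted p = 0.0143), with no overlap. tRF-23-ZRS3S3R602 had 91.1, 120 and 175 CPM in batch 4, against 73.0, 65.4, 45.7 and 41.5 CPM in batch 2, a log2 fold change of 1.28 ± 0.30 (adjusted p = 0.0167), again with no overlap. These 3 were called in 9, 7 and 6 of the 11 alternatives, in the order given.

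All 5 tested fragments with cytosine at position 20 were higher in batch 4, 4 of them called, with a median log2 fold change of 1.60. The fifth, tRF-22-79MP9P9MI, had a log2 fold change of 1.60 ± 0.53 and an edgeR adjusted p of 0.0826. All 5 passed the low-count filter through their levels in batch 4, since too few libraries of batch 2 reached its minimum. For example, tRF-22-79MP9P9MI had 0, 5, 4 and 8 counts in RCD 9, RCD 10, RCD 11 and RCD 12. That all 5 were higher was therefore largely set by the filter. Of the 11 tested fragments with thymine there, 6 were higher and 5 lower, 1 was called (lower), and the median was 0.05. The tested cytosine fragments were of 21 to 23 nt and those with thymine of 16 to 49 nt, so the lists differ in length as well as in base. Both tested ValCAC fragments with thymine, tRF-23-79MP9P9NDE and tRF-49-79MP9P9NH57S362VO02J, were higher, from 0.56 to 0.72, and neither was called. Since fragments with cytosine share much of their sequence and list a single tRNA location each, they are not independent of each other. The untested cytosine forms were tRF-24-79MP9P9MF2 and tRF-32-79MP9P9MH57SJ. The former had 29.4 to 284 CPM in batch 4, against 73.0, 10.9, 15.2 and 20.7 CPM in batch 2. The latter was not higher in batch 4, with 0 to 120 CPM, against 58.4, 54.5, 38.1 and 76.1 CPM in batch 2. Apart from RCD 8, no library of batch 4 exceeded the highest of batch 2 for it. The cytosine form made up 42.003% ± 9.69 of the pair of 23 nt forms in batch 4 (n = 8) and 25.1% ± 11.0 in batch 2 (n = 4).

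tRF-29-79MP9P9NH52Q, a ValAAC 5′ fragment with thymine at position 20, went the other way. Its lowest, median and highest levels were 90.1, 196 and 234 CPM in batch 4, and batch 2 had 511, 785, 290 and 249 CPM, all above batch 4. The log2 fold change was -1.31 ± 0.36 (edgeR adjusted p = 0.0374), called in 6 of 11 alternatives.

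Among the 3′ ends, tRF-18-BS68BFD2 had 942, 1133 and 1501 CPM as lowest, median and highest in batch 4, against 715, 643, 564 and 850 CPM in batch 2. The log2 fold change was 0.90 ± 0.24 (edgeR adjusted p = 0.0309), with no overlap, and it was called in 5 of 11 alternatives. The same end without its last A, tRF-17-BS68BFJ, had 249.9, 300.5 and 413 CPM in batch 4, against 175, 163.5, 137 and 228 CPM in batch 2, a log2 fold change of 0.98 ± 0.27 (adjusted p = 0.0359; called in 4 of 11). tRF-17-08Q2B52, 1 base shorter than tRF-18-BS68BFD2 at its start, did not pass, with a log2 fold change of 0.71 ± 0.28 and an adjusted p of 0.128. Its lowest, median and highest levels were 1501, 1858 and 2547 CPM in batch 4, against 1299, 1526, 808 and 1397 CPM in batch 2.

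All 5 tested valine 3′-tRFs were higher in batch 4, 2 of them called, with a median log2 fold change of 0.71. Over all tRNAs 69 3′-tRFs were tested, of which 53 were higher, 7 were called higher and 1 lower, with a median of 0.41. The 3′-tRFs of all tRNAs made up 8.55% ± 2.59 of tRF counts in batch 4 (n = 8) and 4.89% ± 1.00 in batch 2 (n = 4). ValTAC fragments did not share the difference in sign: of 6 tested, 3 were higher and 3 lower, 0 were called, and the median was -0.13.

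Depth and miRNA markers of cell types differed between the same libraries. tRF counts averaged 70876 per library in RCD of batch 4 and 110370.5 in RCD of batch 2. The 5 neuronal miRNAs summed to 302960 ± 13015 CPM in batch 4 and 248450 ± 8265 CPM in batch 2. Of these, 4 were higher on average in batch 4, and miR-7a-5p was lower, at 25900 ± 5099 CPM in batch 4 and 112630 ± 8353 CPM in batch 2. The muscle list averaged 212 ± 71.7 CPM in batch 4 and 415 ± 60.8 CPM in batch 2, with no overlap. Its member miR-206-3p went the other way, at 22.8 ± 45.1 CPM (median 7.01) in batch 4 and 5.65 ± 1.23 CPM (median 5.14) in batch 2. Both oligodendrocyte miRNAs together averaged 779 ± 173 CPM (568.2 to 1107) in batch 4 and 2173 ± 83.7 CPM (2063 to 2245) in batch 2. The 5 choroid plexus and ciliated-cell miRNAs averaged 3079 ± 2118 CPM in batch 4, from 1739 to 7759, and 5108 ± 367 CPM in batch 2, from 4671 to 5566. No listed marker set was at 0, and their part in the valine differences was not tested.

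The calls between the RCD batches rested on few libraries. Without RCD 10, RCD 11 or RCD 12 in turn, 3 valine fragments were called instead of 7, and without RCD 9 the number was 5. With RCD 4 and RCD 7, the libraries with the highest valine share, left out together, 3 were called. tRF-23-79MP9P9MDD had an edgeR adjusted p of at most 0.0129 in the fits that left out 1 library of batch 2.

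Whether AM132 and AM608 libraries of batch 2 also stood apart was looked at after the result in RCD had been seen. The 16 libraries of batches 1 and 3 were compared with the 16 of batch 2, with treatment as a term and no library in common with the RCD comparison. Of 494 tRFs, 20.9% were called higher and 28.9% lower in batches 1 and 3, so 246 of 494 were called, and scaling over both tables moved the median log2 fold change of all tRFs to 0.54. Of 21 valine fragments 6 were called higher and 4 lower, with a median log2 fold change of 0.37 against 0.03 over all tRFs. The count of valine calls is thus close to the background.

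tRF-23-79MP9P9MDD stood out by the size of its difference. Its lowest, median and highest levels were 284, 392 and 1091 CPM in batches 1 and 3, against 68.6, 131 and 219 CPM in batch 2. No library of either set lay within the range of the other, in 32 mice. The log2 fold change was 1.74 ± 0.17 (edgeR adjusted p = 2.66e-10), called in 9 of 9 alternatives. By group, its mean in batch 2 was 114 ± 32.8 CPM in AM132, 145 ± 39.9 CPM in AM608 and 115 ± 44.3 CPM in RCD, and in the other batches the means lay between 342 and 578 CPM.

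The forms without the first base differed less. tRF-22-ZRS3S3R65 had 58.8, 170.01 and 384 CPM as lowest, median and highest in batches 1 and 3, against 67.7, 112 and 203 CPM in batch 2, with a log2 fold change of 0.62 ± 0.21 (edgeR adjusted p = 0.0153; above the batch 2 mean in 13 of 16). tRF-21-ZRS3S3R6E averaged 139 ± 51.5 CPM in batches 1 and 3 and 95.9 ± 39.1 CPM in batch 2, a log2 fold change of 0.53 ± 0.21 (adjusted p = 0.0365; 15 of 16). Both sets of libraries overlapped for these. tRF-22-ZRS3S3R65 was called in 9 of 9 alternatives and tRF-21-ZRS3S3R6E in 7 of 9, with an adjusted p of 0.0625 without a low-count filter and no test with batches 1 and 2 only. The 3 tested fragments with cytosine at position 20 were called higher, while of the 13 with thymine 3 were called higher and 4 lower. The cytosine form made up 42.3% ± 11.2 of the pair of 23 nt forms in batches 1 and 3 and 32.2% ± 15.2 in batch 2 (n = 16 each), and in AM608 of batch 1 it was 35.4% ± 9.00, against 36.2% ± 12.3 in AM608 of batch 2.

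**Figure D4:**
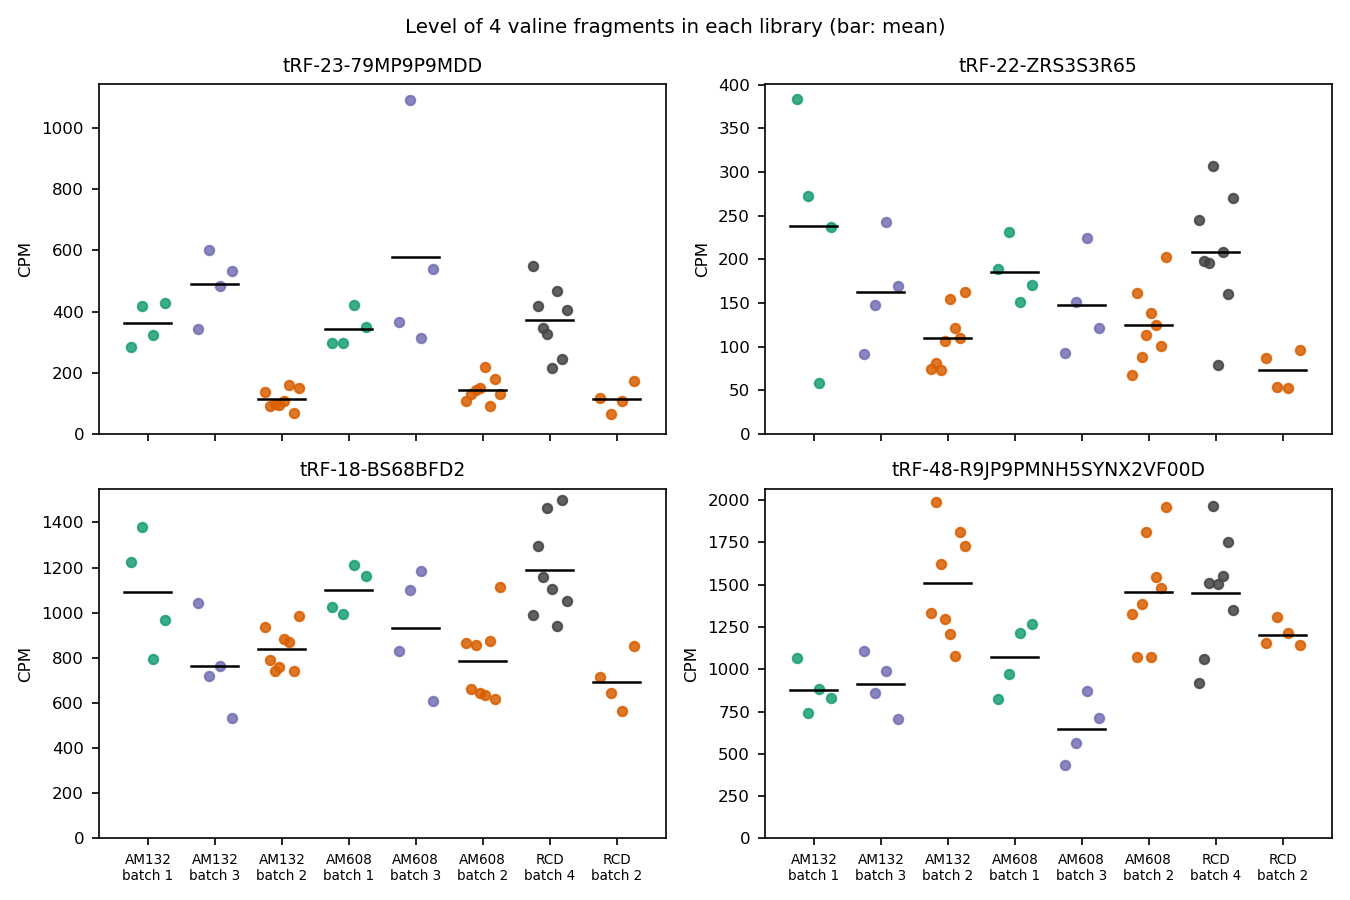
Level of 4 valine fragments in each library, in CPM, by group and batch; points are libraries and bars are means. tRF-23-79MP9P9MDD lies at 219 CPM or below in every library of batch 2 and at 216 CPM or above in every library of the other batches.

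The tested 5′-halves of ValAAC and ValTAC and the short ValCAC form were also higher in batches 1 and 3. The remaining ValAAC 5′-half, tRF-32-79MP9P9MH57SJ, was not tested. tRF-34-79MP9P9NH57S1O, the tested ValAAC 5′-half, averaged 513 ± 216 CPM in batches 1 and 3 and 258 ± 121 CPM in batch 2, a log2 fold change of 0.98 ± 0.25 (edgeR adjusted p = 0.00216). tRF-34-R9JP9PMNH5SYHQ, the ValTAC 5′-half, averaged 282 ± 114 CPM and 193 ± 81.8 CPM in the same order, a log2 fold change of 0.57 ± 0.20 (adjusted p = 0.0223). tRF-23-79MP9P9NDE, the short ValCAC form, averaged 603 ± 198 CPM in batches 1 and 3 and 348 ± 217 CPM in batch 2, a log2 fold change of 0.79 ± 0.26 (adjusted p = 0.0138). Each was called in 9 of 9 alternatives. The 5′-halves of all tRNAs were higher too: of 49 tested, 25 were called higher and 0 lower, and they made up 29.9% ± 4.80 of tRF counts in batches 1 and 3 and 17.8% ± 5.72 in batch 2 (n = 16 each).

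The long fragments were lower in batches 1 and 3. tRF-48-R9JP9PMNH5SYNX2VF00D, the ValTAC 5′ fragment of 48 nt, had 433, 863 and 1268 CPM as lowest, median and highest in batches 1 and 3, against 1073, 1435 and 1990 CPM in batch 2. The log2 fold change was -0.78 ± 0.14 (edgeR adjusted p = 3.96e-05), lower than the batch 2 mean in 16 of 16 libraries and called in 6 of 9 alternatives. It could be tested in 8 of these, since a fit without fragments of 46 to 50 nt leaves it out. There its log2 fold change ran from -0.79 to -0.28, with an edgeR or DESeq2 adjusted p of up to 0.514. AM132 6 had the highest batch 2 level, and without AM132 5, AM132 6 and AM608 5 the log2 fold change was -0.62 (adjusted p = 0.000553). Fragments of 46 to 50 nt of all tRNAs made up 8.89% ± 9.23 of tRF counts in batches 1 and 3 and 32.1% ± 16.7 in batch 2. tRF-49-79MP9P9NH57S362VO02J, the ValCAC fragment of 49 nt, had a log2 fold change of -0.47 ± 0.19 (adjusted p = 0.0386; called in 1 of 9 alternatives), which scaling over both tables turned to 0.02.

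The remaining calls were internal fragments and held in few alternatives. tRF-21-MNH5SYNXD of ValTAC had a log2 fold change of -0.50 ± 0.17 (edgeR adjusted p = 0.0210), called in 2 of 9 alternatives, and 0.01 with scaling over both tables. tRF-16-V4VH7QD averaged 104.5 ± 38.3 CPM in batches 1 and 3 and 156 ± 72.0 CPM in batch 2, a log2 fold change of -0.55 ± 0.20 (adjusted p = 0.0270), called in 0 of 9. The 3′ ends and tRF-29-79MP9P9NH52Q, which differed between the RCD batches, did not pass here: tRF-18-BS68BFD2 averaged 972 ± 242 CPM in batches 1 and 3 and 812 ± 139 CPM in batch 2, and tRF-29-79MP9P9NH52Q 359 ± 194 CPM and 357 ± 202 CPM in the same order, with AM132 6 the highest library of batch 2 at 863 CPM.

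The miRNA markers differed between these libraries as well. Both oligodendrocyte miRNAs together averaged 563 ± 363 CPM in batches 1 and 3 and 2109 ± 379 CPM in batch 2, and the choroid plexus and ciliated-cell list 2041 ± 339 CPM and 4741 ± 340 CPM in the same order. The neuronal list summed to 326420 ± 14501 CPM in batches 1 and 3 and 251840 ± 21608 CPM in batch 2, while miR-7a-5p, 1 of its members, averaged 32186 ± 8620 CPM in batches 1 and 3 and 116480 ± 17848 CPM in batch 2. Their part in the valine differences was not tested.

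**Figure D5:**
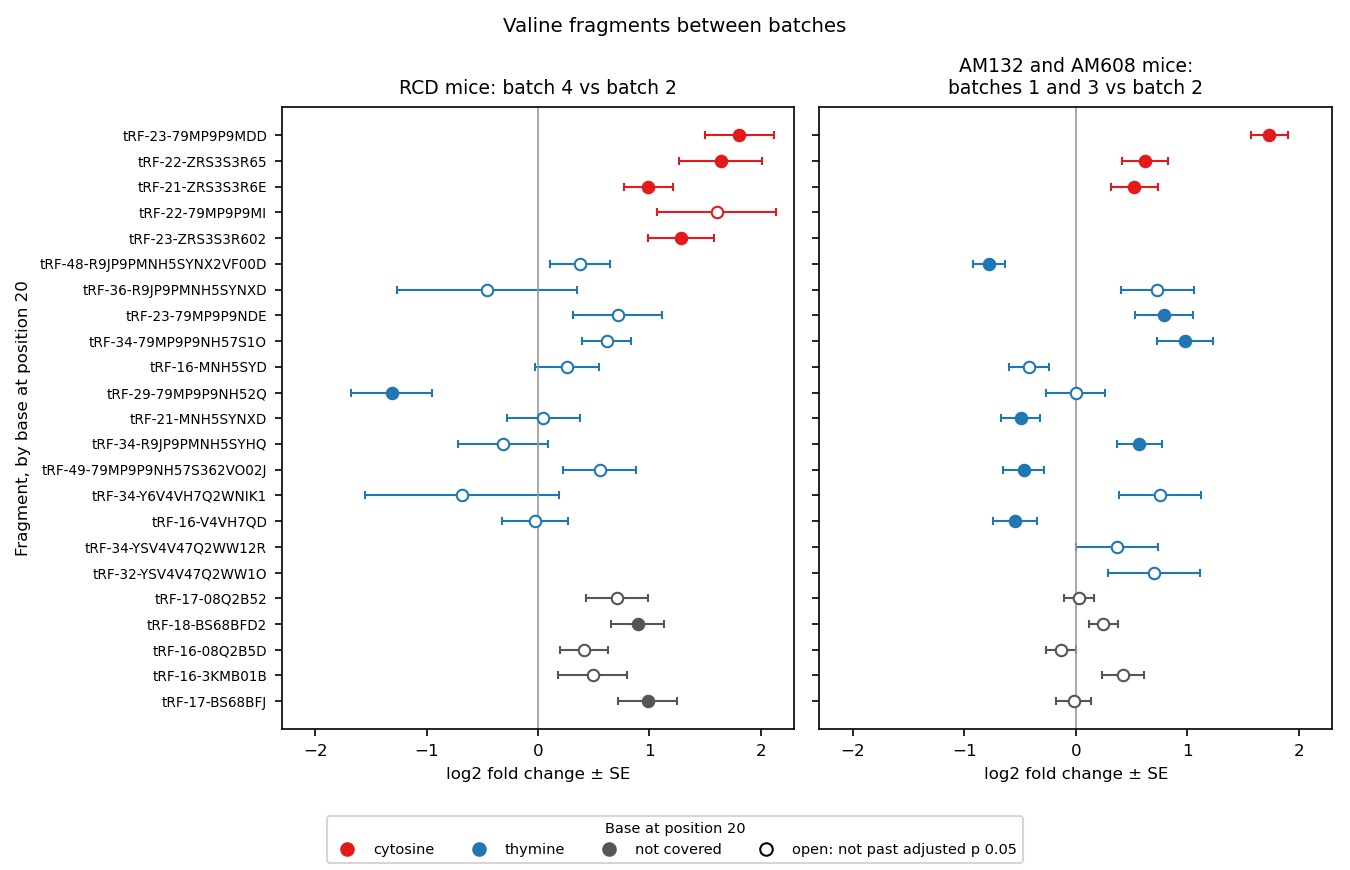
Log2 fold change ± SE of each tested valine fragment between batches, for RCD mice (batch 4 over batch 2, left) and for AM132 and AM608 mice (batches 1 and 3 over batch 2, right), coloured by the base at position 20; filled points passed an adjusted p of 0.05. tRF-23-79MP9P9MDD is at 1.81 on the left and 1.74 on the right, and tRF-48-R9JP9PMNH5SYNX2VF00D is at -0.78 on the right.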

How the data were processed

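The authors deposited 1 table of raw counts of reads per tRF and 1 of raw counts per mature miRNA, each with 44 libraries; 0 columns belonged to other samples. Per the labels' protocols, miRNeasy RNA with RIN above 8.4 was used, 200 ng went into each NEBNext small RNA library, and sequencing was on an Illumina NextSeq. The submitters' processing notes name FastQC with no version; the aligner, the tRNA reference and the genome build are not given in the sources used here, nor is how reads shared between tRNAs were assigned, so fragments common to several tRNAs cannot be placed.

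Tests used edgeR 4.0.16 (with limma 3.58.1, under R 4.3.3), and summaries used Python 3.11.15, pandas 2.3.3 and scipy 1.17.1. The function filterByExpr selected tRFs at a minimum count of 10 and a minimum total of 15. TMM factors were computed over the libraries compared. Each tRF was given edgeR's quasi-likelihood F test, and p-values were adjusted by Benjamini-Hochberg over all tRFs tested, with a threshold of 0.05. Of the valine fragments 19 were tested in all 4 planned comparisons and 8 in none, since the low-count filter removed them. Fold changes are log2, with SE taken as the absolute value divided by the square root of F. CPM per library used TMM over the 44 libraries, and log2 CPM a prior count of 2. Libraries counted as above or below a mean were set, as log2 CPM, against the mean of the other group within that batch or, between batches, of the other set of libraries. Intervals of shares in single libraries are Wilson 95% intervals; they cover counting error only, since the reads carry no molecular identifiers. Nothing in the labels says what else replicates share, so p-values measure the spread between these samples.

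The fits were AM132 against AM608 with batch as a term (32 libraries), batch 2 alone for RCD (20 libraries in 1 fit), RCD of batch 4 against RCD of batch 2 (12), and an interaction of treatment with batch. Alternatives were RLE scaling, scaling over both tables, DESeq2 1.42.0, no filter, a filter of 10 CPM, single batches, no batch term, replicate numbers as a block, and libraries left out. The comparison of batches 1 and 3 with batch 2, the fit without RCD 4 and RCD 7, and that comparison without AM132 5, AM132 6 and AM608 5, were added after the data were seen. Scripts were tested on simulated data. No library duplicated another; chi-square over its degrees of freedom was 5.4 for the closest pair, AM608 5 and AM608 6.

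The members and lists were chosen with earlier results of these data known. Fragments named are the 10 of highest summed count, the highest of each anticodon list and type, and those past the test in a comparison or, where fewer than 3 passed, the 3 of smallest p, which makes 17. Others are named to account for a pair, a threshold or a call, chosen after their values were seen.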

Additional observations from a re-analysis of the deposited data

Results flagged for a closer look

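A library stood apart from its group and batch in 8 of 144 sets of 4 to 10 libraries looked at. Chance alone would give about 1 in 20 in independent sets. These sets reuse the same libraries for several fragments, and whether the 8 differ from chance was not tested. In batch 1, tRF-29-79MP9P9NH52Q was at a log2 CPM of 6.96 in AM132 4, against 8.11 to 8.34 in the other 3 AM132 libraries. In the same batch, tRF-32-YSV4V47Q2WW1O was at 4.34 in AM132 1, against 6.11 to 6.30, and tRF-17-BS68BFJ at 7.62 in AM132 3, against 8.32 to 8.42. tRF-34-79MP9P9NH57S1O, a ValAAC 5′-half, was at 5.72 in AM132 12 of batch 2, against 7.98 to 8.84 in the other 7. In batch 3 it was at 8.96 in AM132 13, against 9.38 to 9.43.

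In batch 2, the valine share of tRF counts was 1.33% in AM608 12, against 0.569 to 0.781% in the other 7 AM608 libraries. tRF-36-R9JP9PMNH5SYNXD was at a log2 CPM of 5.86 in AM608 8, against 8.23 to 9.72. tRF-21-ZRS3S3R6E was at 6.59 in RCD 10, against 6.94 to 6.99 in the other 3 RCD libraries of batch 2.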

How the results depend on the processing

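Every alternative run left 0 valine fragments called between AM132 and AM608 and between either and RCD. Over all tRFs, DESeq2 called 1 in AM608 against RCD and a fit with no low-count filter 1 in AM132 against RCD; the other alternatives called 0. The replicate numbers do not pair the libraries (deviations from group means correlated at -0.59 to 0.77 over 16 pairs of AM132 and AM608, and over 0.1 in 0 of 4 pairs of AM132 with RCD and 2 of 4 of AM608 with RCD), and with the replicate block 0 tRFs were called in each of the 3 comparisons. RLE scaling moved the median log2 fold change of AM132 against RCD to -0.15, against 0.06 with TMM.

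Between RCD of batch 4 and batch 2, 50 tRFs were called (23 higher, 27 lower). DESeq2 called 93 (42 and 51), no filter 109 (10 and 99), the filter of 10 CPM 47 (11 and 36), RLE scaling 60 (23 and 37), 70 were called with scaling over both tables (24 and 46), leaving out single libraries of batch 2 between 28 and 52, and leaving out RCD 4 and RCD 7 29. The 7 valine calls became 4 with no filter, 2 with the filter of 10 CPM, 3 to 5 with a library of batch 2 left out and 3 without RCD 4 and RCD 7. Without a filter or with the 10 CPM filter, 9917 and 2598 tRFs were tested instead of 510.

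Between batches 1 and 3 and batch 2, 246 tRFs were called (103 higher, 143 lower), 638 with no filter, 532 with the filter of 10 CPM and 128 with batches 1 and 2 only. The split turned with scaling: 157 higher and 107 lower with RLE, 172 and 110 with DESeq2, and 255 and 74 with scaling over both tables, which moved the median of all tRFs to 0.21, 0.22 and 0.54, against 0.03. tRF-21-MNH5SYNXD turned to 0.0108 and tRF-49-79MP9P9NH57S362VO02J to 0.0197 with scaling over both tables. Between AM132 and AM608, tRF-34-R9JP9PMNH5SYHQ turned to -0.22 in batch 1 alone and tRF-32-YSV4V47Q2WW1O to 0.17 in batch 3 alone. The cause of these turns was not tested. Of the other fold changes under alternatives, 229 kept direction and side of the threshold and 52 kept direction only.

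The valine share, 0.971% of tRF counts on average, was 0.0214% of miRNA and tRF counts together. Many fragments rest on few counts: tRF-32-YSV4V47Q2WW1O had 0 to 37 counts per AM608 library.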
